A study of Homo sapiens with 32 samples.

Results

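RNA-seq libraries collected 6 h after treatment were compared with libraries collected at 2 h in RH4, a cell line from a human alveolar rhabdomyosarcoma that carries a PAX3-FOXO1 fusion and is long established in culture. The members were the 8 libraries of 4 conditions, chosen by treatment label: DMSO (the solvent), NT (not spelled out by the labels), and JQAD at 100 nM or 1000 nM, each with 1 library at 2 h and 1 at 6 h. JQAD is one of the compounds of a series that the design text describes as on inhibitors or degraders of the acetyltransferases CBP and p300. These 8 came from 20 RNA-seq libraries and 32 samples in all, and the other 12 RNA-seq libraries held A485, dCBP or IHK-44. The comparison asked which transcripts change with time in culture across these conditions. Each condition gave 1 pair of libraries, so the 4 pairs stood in for replicates, and the labels do not say whether they came from separate cultures. If they did not, the p-values measure only the spread between these samples.

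All 8 groups share the same cells and handling: 1 tumour-derived line, grown in medium with serum, plated on the day before treatment and collected with trypsin. Time since treatment, time since plating and the hour of collection cannot be told apart in this design, and whether medium was changed at treatment is not given in the sources used here. Markers of the labelled cell type were present in all 8 libraries, with MYOD1 between 508 and 747 CPM (expected counts scaled to a common total over coding genes), MYOG between 264 and 319 CPM, PAX3 between 72.6 and 82 CPM, and FGFR4 between 743 and 928 CPM. Markers of other cells were near 0: the summed level of 8 leukocyte markers was 1.65 to 2.7 CPM, that of 7 endothelial markers 2.18 to 4.51 CPM and that of 7 epithelial markers 0.926 to 2.91 CPM, with PTPRC and EPCAM at 0 in every library. Fibroblast-type genes, which this mesenchymal line also expresses, summed to 2530.2 to 3072.5 CPM.

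As background, the messenger RNA of a growing cell turns over at very different rates. Transcription factors of the immediate early class, feedback inhibitors and splicing regulators have short-lived transcripts and can rise and fall within hours, whereas transcripts of ribosomal, matrix and contractile proteins are long-lived. Several feedback systems also move on this scale: the sterol sensor SREBP raises cholesterol synthesis genes when sterol is short, HSF1 raises chaperones, YAP with TEAD raises genes of cell spreading, and the clock repressors NR1D1 and NR1D2 cycle over the day.

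The 8 libraries were first compared by multidimensional scaling. Each distance rests on the genes that differ most between the libraries compared, not on all genes. On the first axis (30.4% of the variation in these distances), the 6 h library of 100 nM JQAD lay at 0.562, near the 2 h library of NT at 0.578. The other 2 h libraries lay there between -0.089 and 0.205 and the other 6 h libraries between -0.523 and -0.384. The second axis (18.6%) separated the times, with 2 h at 0.098 to 0.508 and 6 h at -0.587 to -0.084. On it the 6 h library of 100 nM JQAD lay at -0.587 and the 2 h library of NT at 0.098. Both of these libraries hold a large share of counts in long transcripts. The 1247 longest of the tested transcripts, of at least 7080 bases, took 20.3% of coding counts in that JQAD library and 19.7% in that NT library, against 17.1% to 19.2% in the other 6. The muscle gene TTN, with the longest transcript in the files, stood at 4780.4 CPM in the 6 h library of 100 nM JQAD and at 908 to 2618 CPM elsewhere. That share was higher at 6 h in the DMSO and 100 nM JQAD pairs and lower in the other 2 pairs, so it did not follow time. Its part in the results was not tested. Totals over coding genes ran from 13518765 to 16661051 counts, so 1 CPM rests on 13.5 to 16.7 reads.

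Between 2 h and 6 h, 680 genes rose and 561 fell among 12462 tested genes, and most of these changes were small. With edgeR's quasi-likelihood test, the pair as a block and a Benjamini-Hochberg adjusted p under 0.05, 9.96% of the tested genes were called (5.46% higher and 4.5% lower at 6 h). These shares are the background for every count of list members below. The median ratio of 6 h to 2 h was 1.226 among the genes that rose and 0.8068 among those that fell, and 6 rises and 20 falls reached 2-fold. The sign was the same in all 4 pairs for 1216 of the 1241 called genes. For 1110 of them the 4 libraries of one time did not overlap those of the other, which over all tested genes held for 10.9% (higher) and 7.47% (lower). The median change over all tested genes was -0.01 on the log2 scale.

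How many genes were called depended on which pairs entered. Leaving out the pair with 100 nM JQAD gave 1643 calls (796 higher), of which 1086 were among the 1241. Without the DMSO pair, 331 genes were called, without NT 536 and without 1000 nM JQAD 846. Each such fit had 1 residual degree of freedom fewer. A core of 296 genes (139 higher and 157 lower) was called in the full fit and in all 4 of these, and the genes given below with full statistics belong to it unless the text says otherwise. The DMSO and NT pairs alone gave 1290 calls, and 867 of these were among the 1241, all with the same sign. DESeq2 called 704 genes, 703 of them shared. On deposited CPM limma called 1240 genes. Deposited TPM scales by transcript length and also to a total that reaches beyond the coding genes. On TPM limma called 67 genes, of which 17.9% were higher at 6 h. Coding genes took 37.9% to 45.5% of TPM in the 8 libraries. That share was lower at 6 h in the DMSO, NT and 1000 nM JQAD pairs and higher in the 100 nM JQAD pair. Its part in the TPM calls was not tested.

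**Figure D1:**
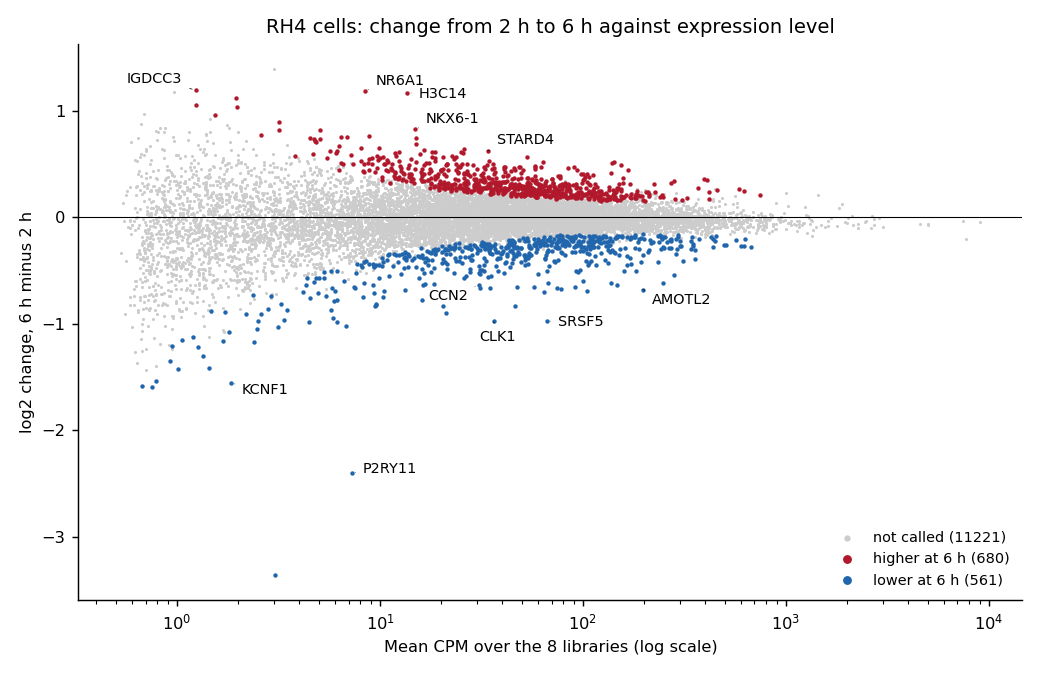
Fitted log2 change from 2 h to 6 h (vertical axis) against the mean CPM over the 8 libraries (horizontal log axis), 1 point per tested gene. Red points are the 680 genes higher at 6 h, blue points the 561 lower, and grey points the genes not called. Rises stay below 1.2 on the log2 scale while falls reach beyond it, mostly at low CPM.

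The largest rise among well-supported genes was that of NR6A1, an orphan nuclear receptor of germ and stem cells, on chromosome 9 (124517275 to 124771311, GRCh38). It stood at 4.98, 6.25, 4.26 and 4.76 CPM at 2 h in DMSO, NT, 100 nM JQAD and 1000 nM JQAD, the order used for every list of 4 values below. At 6 h the values were 10.8, 13.3, 13.4 and 9.49 CPM. The lowest 6 h library thus lay above the highest 2 h library, with a ratio of 2.28 (log2 1.19 ± 0.13 SE, adjusted p = 0.000255). NKX6-1, a homeodomain transcription factor known from pancreas and motor neurons, went from 10.6 ± 0.47 CPM (mean ± SD, n = 4) at 2 h to 19 ± 1.06 CPM at 6 h, a log2 change of 0.83 ± 0.08 (adjusted p = 0.00019). ZBTB8B, a BTB zinc finger gene, rose by 0.82 ± 0.14 (adjusted p = 0.00375).

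The other large rises had few reads or little support. IGDCC3, S1PR5 (a sphingosine phosphate receptor), TMEM121, KLF15, ONECUT2, GCH1 (the first enzyme of tetrahydrobiopterin synthesis), PLEKHF1 and HES7 had means of 1.68 to 4.14 CPM at 6 h, and each lost its call with at least 1 pair left out. ONECUT2 lost it with any pair left out, at adjusted p between 0.071 and 0.12. H3C14, a histone H3 gene, rose from 10.3, 11, 3.86 and 7.95 CPM to 14.5, 14.9, 17.4 and 29.3 CPM in the DMSO, NT, 100 nM JQAD and 1000 nM JQAD pairs. The log2 change was 0.46 in the DMSO and NT pairs alone and 2 in the JQAD pairs alone. Histone genes are near-identical copies among which reads can be split, and without the 1000 nM JQAD pair the adjusted p of H3C14 was 0.055.

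The largest falls were at low expression. KCNF1, a modifier subunit of potassium channels, stood at 2.58, 2.56, 3.08 and 2.8 CPM at 2 h and at 1.12, 1.03, 0.814 and 0.775 CPM at 6 h, a log2 change of -1.56 ± 0.26 (adjusted p = 0.00276). LAD1, an anchoring filament protein, fell by 1.17 ± 0.21 on the log2 scale (adjusted p = 0.0045). P2RY11, a nucleotide receptor, had the largest fall of the genes chosen by rule, from 12.2, 13.1, 10.9 and 11.5 CPM to 1.52, 0.349, 6.15 and 2.22 CPM (log2 -2.40 ± 0.39, adjusted p = 0.00248). This gene (chromosome 19, 10111693 to 10115372) overlaps the end of PPAN (10106223 to 10112012), so reads of the pair cannot be cleanly assigned, and PPAN itself was only 0.837 times its 2 h level (adjusted p = 0.0495, lost without DMSO, NT or 1000 nM JQAD). SULT1A3, a sulfotransferase singled out after its values were seen, was the lowest point of the plot of change against level. It stood at 7.95, 8.65, 0.259 and 5.52 CPM and then at 0.403, 0.162, 1.19 and 0.254 CPM, lower in 3 of 4 pairs (adjusted p = 0.00859, and 0.0524 to 0.0827 without DMSO, NT or 1000 nM JQAD). Its near-identical copy SULT1A4 went from 0.096, 1.88, 6.14 and 0 CPM to 4.98, 2.72, 5.79 and 2.56 CPM, and reads of such copies cannot be cleanly told apart.

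FUT2, GRIN3B, ESR1 (oestrogen receptor), DUSP2, C16orf96, RNF182, NTRK3 (a neurotrophin receptor) and CFLAR (an inhibitor of caspase activation) were also among the largest falls, with means of 1.13 to 2.32 CPM at 2 h. Each of these lost its call with at least 1 pair left out. ESR1 and NTRK3 lost it in every such fit that tested them.

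Regulators of splicing included the gene with the smallest adjusted p of all 12462, and they moved in both directions. This family was chosen after the values were seen, so its counts are only a description. Of 20 tested SR proteins, CLK kinases and SRPK kinases, 4 rose and 5 fell (5.46% and 4.5% over all genes). SR proteins bind exons to promote splicing, and CLK and SRPK kinases phosphorylate them. SRSF5 (chromosome 14, 69767142 to 69772005) was that gene. It stood at 90.8, 87.2, 96.5 and 76.5 CPM at 2 h and at 46.2, 39.9, 52 and 42.7 CPM at 6 h. The lowest 2 h library was well above the highest 6 h library, and the ratio was 0.51 (log2 -0.97 ± 0.06, adjusted p = 7.29e-06).

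The kinase CLK1 (chromosome 2, 200853009 to 200864658) followed the same course. Its values were 50.1, 51.8, 50.9 and 39.2 CPM at 2 h and 24, 22.6, 29.1 and 22.8 CPM at 6 h, a ratio of 0.508 (adjusted p = 3.46e-05). CLK3 fell by 0.52 ± 0.08 on the log2 scale (adjusted p = 0.0027). CLK4 was 0.549 times its 2 h level (adjusted p = 0.0105), a call lost without DMSO (adjusted p = 0.083) or NT (0.069). SRSF6 went from 372 ± 18.4 to 306 ± 8.07 CPM (adjusted p = 0.00205). In the opposite direction, SRSF4 rose from 79.9, 81.1, 78.3 and 76.3 CPM to 108, 102, 113 and 111 CPM, a ratio of 1.36 (adjusted p = 0.000333). SRSF7, TRA2B and SRPK1 were 1.15 to 1.17 times as high at 6 h, and their calls were lost without the DMSO pair or the NT pair.

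Of 21 hnRNP genes, the other large family of nuclear RNA-binding proteins, 1 passed (4.8%, against 9.96% over all genes). HNRNPDL stood at 301, 299, 310.1 and 284 CPM at 2 h and at 196, 201, 196 and 191 CPM at 6 h, and none of the libraries overlapped (ratio 0.652, adjusted p = 2.3e-05).

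The promoter of CLK4 holds an E-box, CACGTG, the site that clock and MYC-type factors read, and so does the promoter of TEF, a clock output gene described below. The sequences, from RefSeq (GRCh38.p14), are printed 5′ to 3′ on the gene's strand with the motif in capitals, since both genes fell and both carry the motif within 250 bases before the start. Over promoters of the tested genes this motif, read on both strands, was found in 8.2%, and in 7.11% of promoters of genes that rose and 10% of those of genes that fell.
CLK4, chr5:178627136-178627181, minus strand: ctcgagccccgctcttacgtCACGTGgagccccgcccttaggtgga
TEF, chr22:41367240-41367285, plus strand: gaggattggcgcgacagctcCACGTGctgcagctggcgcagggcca

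**Figure D2:**
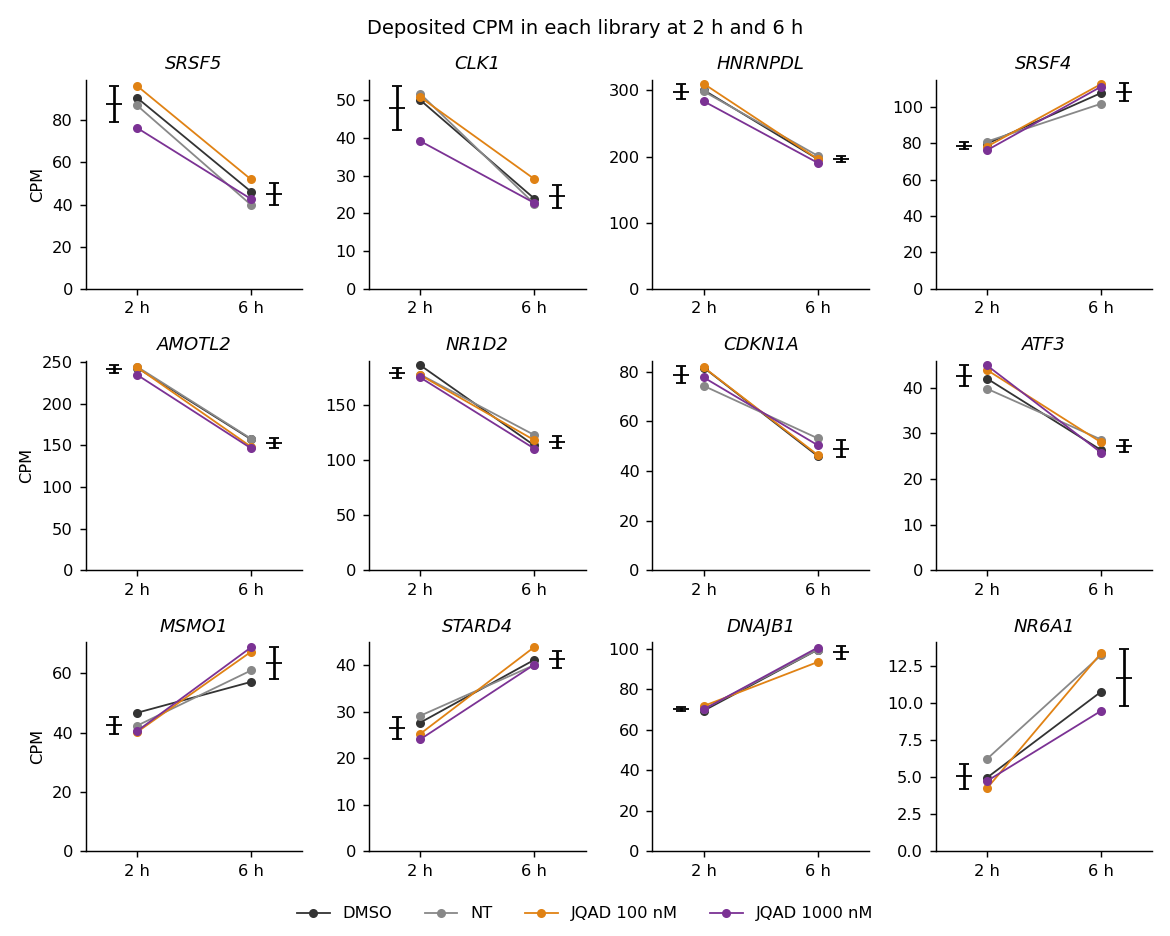
Deposited CPM (vertical axes, from 0) at 2 h and 6 h in 12 genes, with 1 line per condition and, beside the points, the mean ± SD of the 4 libraries of each time. The 2 times do not overlap in any of the 12 genes. SRSF5 and CLK1 end near 0.51 times their 2 h level and NR6A1 at 2.28 times.

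Among immediate early genes, the AP-1 and EGR factors that answer growth signals first, 3 of 14 tested fell and none rose (4.5% and 5.46% over all genes). The median log2 change was -0.201 against -0.01 over all genes. ATF3, a stress-induced member, stood at 42, 39.8, 43.9 and 44.9 CPM at 2 h and at 26.3, 28.6, 28 and 25.8 CPM at 6 h (ratio 0.632, adjusted p = 0.000232). FOSL2 was 0.742 times its 2 h level (adjusted p = 0.000255). JUND was 0.825 times as high and lost its call without the DMSO pair (adjusted p = 0.12). JUN was at 469 to 529 CPM and EGR1 at 4.83 to 8.46 CPM, with overlapping groups, and FOS was at 0.529 to 1.61 CPM. Neither these nor MYC, at 63.4 to 75.6 CPM, passed the test.

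KLF factors are zinc finger regulators of growth and differentiation: 5 of 13 tested fell (4.5% over all genes), 1 rose (5.46%) and 7 were not called. Their median log2 change was -0.057. KLF5 went from 78.6 ± 1.39 to 57.8 ± 2.94 CPM, with no overlap (adjusted p = 0.000315). KLF10, which TGF-beta induces, was 0.763 times its 2 h level (adjusted p = 0.00112), KLF4 0.716 times (adjusted p = 0.00346) and KLF9, a glucocorticoid-responsive member, 0.701 times (adjusted p = 0.00637). KLF11 was 0.772 times as high and lost its call without the DMSO pair (adjusted p = 0.09). KLF15 was the member that rose, at 0.909 to 3.22 CPM (adjusted p = 0.014, and 0.096 without the DMSO pair).

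Of 15 tested clock genes, 3 fell and none rose (4.5% and 5.46% over all genes). NR1D2, a repressor in the feedback loop of the clock (chromosome 3, 23945286 to 23980617), stood at 186, 177, 177 and 175 CPM at 2 h and at 113, 123, 118 and 110.2 CPM at 6 h. All 6 h libraries lay far below all 2 h libraries (ratio 0.642, adjusted p = 2.88e-05). TEF, an activator that reads D-boxes, was 0.787 times its 2 h level (adjusted p = 0.00659), and 0.056 was its adjusted p without the DMSO pair. NR1D1 was 0.728 times as high, from a mean of 10.8 CPM at 2 h, and its call was kept only without the 100 nM JQAD pair (adjusted p = 0.074, 0.13 and 0.063 in the other 3 fits).

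YAP and TEAD are the effectors of the Hippo pathway that respond to cell shape and density. Their targets fell in 5 of 11 tested genes and rose in 1 (4.5% and 5.46% over all genes). AMOTL2, an angiomotin that restrains YAP (chromosome 3, 134355345 to 134375417), stood at 243, 244, 244 and 235 CPM at 2 h and at 157, 158, 148 and 146 CPM at 6 h. The spread within each time was small beside the difference (ratio 0.625, adjusted p = 1.2e-05). LATS2, the kinase that inactivates YAP, was 0.738 times its 2 h level (adjusted p = 0.000195). CCN2, a secreted matrix-associated factor, stood at 36.8, 36.8, 38.8 and 36.1 CPM and then at 25.8, 25, 23.6 and 21.8 CPM (ratio 0.642, adjusted p = 0.000255). AXL, a receptor kinase, was 0.851 times as high and lost its call without the DMSO pair (adjusted p = 0.10). CRIM1 was 0.884 times as high and lost its call with any pair left out. CCN1, a close relative of CCN2, went the other way (1.15 times, adjusted p = 0.045, and 0.067 to 0.21 without the DMSO, NT or 1000 nM JQAD pair).

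The CCN2 promoter is printed because it holds 3 copies of CATTCC, the letters that TEAD factors read, here all on the opposite strand (GGAATG, in capitals). This motif, searched on both strands and chosen after the data were seen, was found in 9.81% of promoters of tested genes, 8.63% of those of genes that rose and 9.9% of those of genes that fell.
CCN2, chr6:131951442-131951561, minus strand: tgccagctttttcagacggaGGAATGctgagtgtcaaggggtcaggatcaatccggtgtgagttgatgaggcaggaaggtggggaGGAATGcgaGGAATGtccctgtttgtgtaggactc

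The list of TGF-beta and BMP targets had the largest share of members that fell: 8 of 13 tested (4.5% over all genes), with none higher and a median log2 change of -0.254. BMP4, a ligand, stood at 36.3, 37.1, 36.3 and 35 CPM and then at 28.4, 26.4, 25 and 24.2 CPM, without overlap (adjusted p = 0.00116). SMAD7, the feedback inhibitor of the pathway, was 0.568 times as high at 6 h (adjusted p = 0.00196). ID2 was 0.506 times as high, from a mean of 8.16 CPM at 2 h, and lost its call without the NT pair (adjusted p = 0.061). ID1, SMAD6, BAMBI and TGIF1, also feedback or target genes, were 0.812 to 0.888 times their 2 h level. The 8 falls became 4 without the DMSO pair and 3 without NT, where 176 of 12491 and 240 of 12450 tested genes fell. They were 6 without 1000 nM JQAD and 8 without 100 nM JQAD (390 of 12508 and 847 of 12460 over all genes). The summed level of the list was lower at 6 h in each pair, at 0.892 to 0.912 times.

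Feedback genes of ERK signalling split, with 2 of 15 higher and 3 lower (5.46% and 4.5% over all genes). SPRY4, an inhibitor of receptor kinase signalling, stood at 18.3, 19.1, 20.5 and 22.8 CPM at 2 h and at 30.5, 32.1, 33.9 and 30.3 CPM at 6 h (ratio 1.56, adjusted p = 0.000606). DUSP6, the ERK phosphatase, was 1.22 times as high, with its call lost without DMSO, NT or 1000 nM JQAD (adjusted p = 0.16, 0.19 and 0.054). DUSP1, DUSP2 and the ETS factor ETV1 were lower, and none of these 3 held with every pair left out in turn. Among 9 CREB response genes NR4A1 was higher (log2 0.53, adjusted p = 0.031) and DUSP1 lower (0.816 times, adjusted p = 0.049). Without the DMSO pair neither passed (adjusted p = 0.089 and 0.22).

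**Figure D3:**
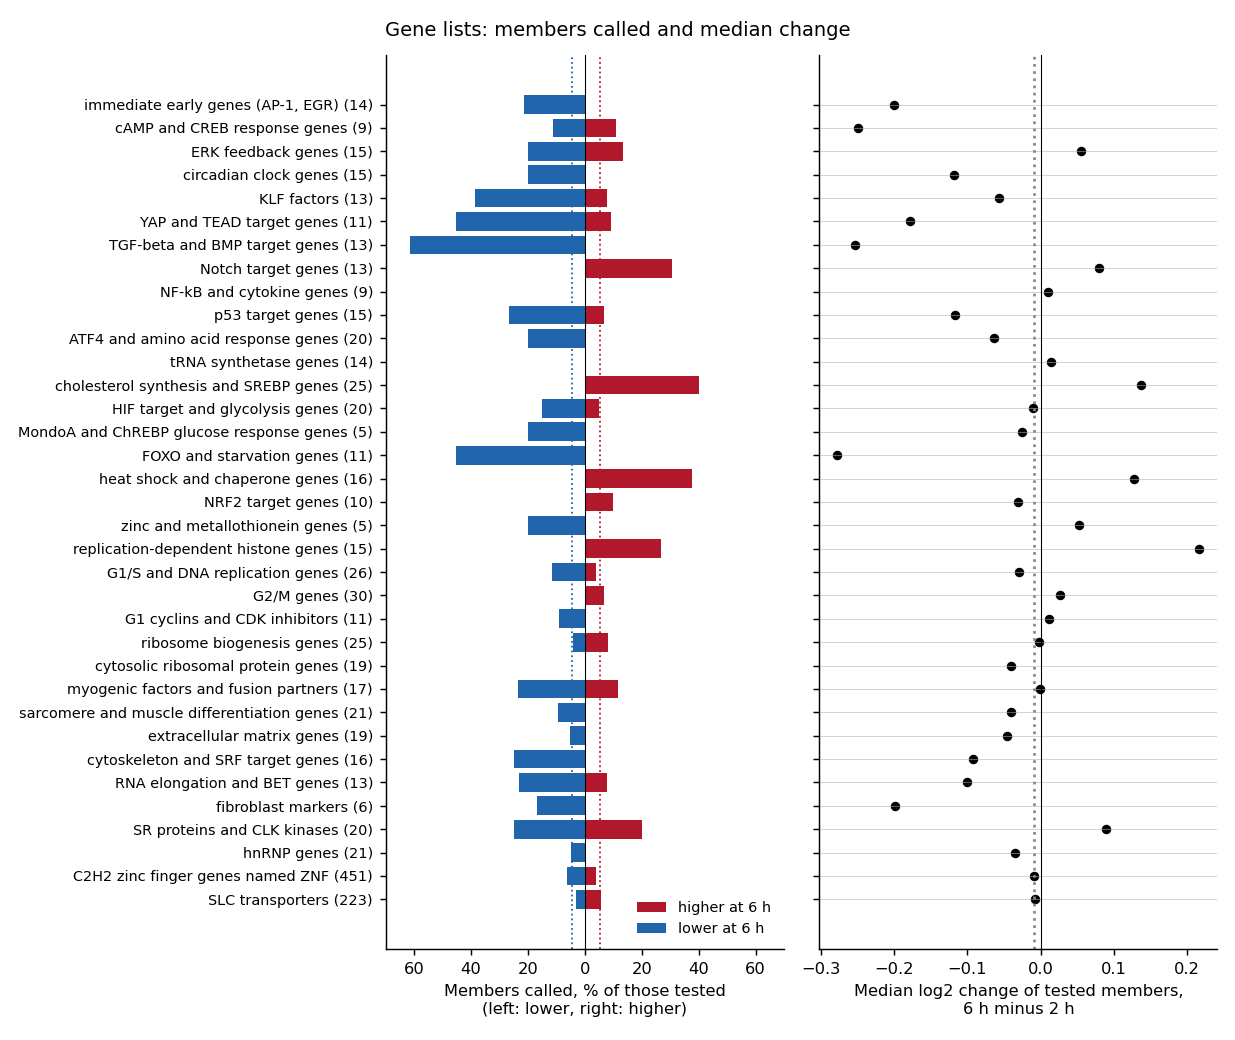
Left, the share of tested members of each list (number tested in brackets) that was called higher (red, to the right) or lower (blue, to the left) at 6 h, with dotted lines at the shares over all tested genes, 5.46% and 4.5%. Right, the median log2 change of the tested members, with the dotted line at the median of all tested genes. The lists of TGF-beta and BMP, YAP and FOXO genes lie furthest to the left in called members, and the cholesterol list furthest to the right.

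Of 15 tested targets of p53, a regulator of growth arrest, 4 fell (4.5% over all genes), 1 rose (5.46%) and 10 were not called. CDKN1A, which encodes the CDK inhibitor p21 and is also the 1 gene of 11 G1 cyclins and CDK inhibitors that passed, stood at 81.7, 74.3, 81.8 and 77.7 CPM at 2 h and at 46, 53.2, 46.5 and 50.4 CPM at 6 h. The groups did not overlap (ratio 0.616, adjusted p = 0.00011). BTG2, PMAIP1 and BBC3, which encode an antiproliferative factor and a pair of death-promoting BH3 proteins, were 0.868, 0.776 and 0.605 times their 2 h level. ZMAT3 was 1.19 times as high. Each of these 4 calls was lost without the DMSO pair (adjusted p = 0.13 to 0.23). BMF, another BH3 gene, was singled out after its values were seen, as one of the smallest adjusted p values, and went from 129 ± 12.3 to 80.5 ± 9.18 CPM (adjusted p = 1.2e-05).

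Of 20 tested ATF4 and amino acid response genes, 4 fell and none rose (4.5% and 5.46% over all genes). All 14 tRNA synthetase genes, many of which ATF4 also regulates, missed the threshold (median log2 change 0.014). ATF4 itself went from 332, 327, 313 and 309 CPM to 245, 257, 238 and 279.7 CPM (ratio 0.788, adjusted p = 0.00229). CHAC1, a glutathione-degrading enzyme and direct ATF4 target, was 0.507 times its 2 h level, within 2.64 to 8.12 CPM (adjusted p = 0.00775, and 0.051 without the NT pair). CEBPB and the amino acid transporter SLC38A2 were 0.815 and 0.861 times as high and lost their calls without the DMSO pair. The CHAC1 promoter is shown for its C/EBP-ATF motif, TGATGNAAN, here on the opposite strand. The motif, searched on both strands, was found in 1.67% of promoters of tested genes, in 1.65% of those of genes that rose and in 3.39% of those of genes that fell.
CHAC1, chr15:40953241-40953289, plus strand: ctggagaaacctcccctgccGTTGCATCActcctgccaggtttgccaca

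FOXO and starvation genes fell in 5 of 11 tested cases (4.5% over all genes). Their median log2 change of -0.278 was the lowest of the lists with at least 5 tested genes. IRS1, the adaptor of the insulin receptor, stood at 733, 708, 756 and 752 CPM at 2 h and at 599.8, 602, 656 and 598 CPM at 6 h (ratio 0.825, adjusted p = 0.00398). Its adjusted p without the DMSO pair was 0.067. The IRS1 transcript (9771 bases) is among the 1247 longest, and the part of their share of counts in its values was not tested. FOXO3, KLHL24, BCL6 and CCNG2 were 0.675 to 0.867 times their 2 h level. None of the 5 passed in every fit with 1 pair left out, and without the DMSO pair none passed at all.

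TXNIP, the glucose-responsive inhibitor of thioredoxin, was 0.821 times its 2 h level (adjusted p = 0.00419). It was the 1 of 5 MondoA targets that passed (4.5% fell over all genes). Among 20 HIF and glycolysis genes, 3 fell and 1 rose (4.5% and 5.46% over all genes). KDM3A, a hypoxia-induced histone demethylase, and NDRG1 were 0.797 and 0.715 times as high (adjusted p = 0.00205 and 0.00469), and the glucose transporter SLC2A1 was 0.797 times as high, with an adjusted p of 0.054 without the DMSO pair. HK2, which traps glucose in the cell, was 1.15 times as high, lost without DMSO, NT or 1000 nM JQAD. SLC30A1, the zinc exporter, went from 91.1, 95.6, 84.2 and 93.4 CPM to 74.8, 69.6, 71.5 and 72.1 CPM (adjusted p = 0.00172). It was the 1 of 5 tested zinc genes that passed (4.5% fell over all genes). Of 10 NRF2 targets, SRXN1 passed (1.15 times, adjusted p = 0.049, kept only without the 100 nM JQAD pair), and of 9 NF-kB and cytokine genes none did. Over all genes 9.96% were called.

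Of 25 tested cholesterol synthesis and SREBP genes, 10 were higher at 6 h, none was lower and 15 were not called (5.46% higher over all genes), and 7 of the 10 held with any 1 pair left out. Without the NT pair 8 were higher and none lower, where 2.38% and 1.93% of all genes were. The DMSO and NT pairs alone gave 8 higher and 1 lower, and limma on TPM gave 0 calls in the list. The summed level of the list was 1.08 to 1.14 times as high at 6 h in the 4 pairs. MSMO1, a sterol demethylase, stood at 46.6, 42.3, 40.1 and 40.5 CPM at 2 h and at 57, 60.9, 67.2 and 68.7 CPM at 6 h, without overlap (ratio 1.48, adjusted p = 0.00101). STARD4, a sterol carrier (chromosome 5, 111496033 to 111512535), rose from 27.6, 29.1, 25.2 and 24.1 CPM to 41.1, 40, 43.9 and 40.1 CPM (ratio 1.54, adjusted p = 0.000338).

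SQLE, the epoxidase that commits squalene to sterols, was 1.25 times as high (adjusted p = 0.0018). HMGCS1, IDI1 and INSIG1, the feedback regulator that holds SREBP in place, were 1.24, 1.3 and 1.27 times as high and also held with any 1 pair left out. SC5D and MVK were 1.19 and 1.25 times as high and lost their calls without the DMSO pair. MSMO1 is shown for its sterol element, TCACNCCA. Read on both strands, this motif was found in 2.74% of promoters of tested genes, 3.05% of those of genes that rose and 3.26% of those of genes that fell.
MSMO1, chr4:165327493-165327540, plus strand: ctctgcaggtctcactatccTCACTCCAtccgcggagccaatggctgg

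Of 16 tested heat shock and chaperone genes, 6 rose (5.46% over all genes), none fell and 10 were not called, with a median log2 change of 0.127. DNAJB1, the co-chaperone that limits HSF1, stood at 69.4, 70.3, 71.8 and 70.1 CPM at 2 h and at 99.6, 99.6, 93.5 and 101 CPM at 6 h (ratio 1.38, adjusted p = 0.00022). CHORDC1, an HSP90 partner, was 1.42 times as high (adjusted p = 0.00115) and HSPA1B 1.28 times (adjusted p = 0.00128). HSPA1A and HSPA1B are near-identical copies, so their split is uncertain, but both were called higher, HSPA1A at 1.16 times. HSPH1 (1.21 times), BAG3 (1.27 times) and HSPA1A lost their calls without the DMSO pair (adjusted p = 0.068, 0.11 and 0.16). The CHORDC1 promoter holds a run of heat shock elements, in which GAA blocks alternate in orientation at 2-base spacing, with 3 overlapping matches (in capitals). The motif, searched on both strands, was chosen after the data were seen and was found in 0.285% of promoters of tested genes, 0.254% of those of genes that rose and 0.26% of those of genes that fell.
CHORDC1, chr11:90223067-90223129, minus strand: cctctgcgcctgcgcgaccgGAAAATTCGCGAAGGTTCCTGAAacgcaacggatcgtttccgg

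Replication-dependent histone genes, which supply chromatin in S phase, gave calls that depended on which pairs entered. All 15 tested had a positive change, where the median over all genes was -0.01. Of these, 4 were called higher (H1-2, H1-3, H1-5 and H2BC8), against 5.46% over all genes. H1-3 alone held with any 1 pair left out. The summed level of the list stood at 3581.1, 3565.7, 4352.4 and 3423.7 CPM at 2 h and at 4386.4, 4270.8, 4029.6 and 4866.1 CPM at 6 h. It thus rose 1.22, 1.20 and 1.42 times in the DMSO, NT and 1000 nM JQAD pairs and was 0.926 times as high at 6 h in the 100 nM JQAD pair, whose 2 h library already lay near the 6 h level of the others. Without that pair all 15 were called higher, against 6.39% of all genes in the same fit (6.8% lower), and the median log2 change moved from 0.217 to 0.349. Without any 1 of the other pairs, 1 was called. In those fits 155 of 12491 (without DMSO), 296 of 12450 (without NT) and 456 of 12508 (without 1000 nM JQAD) tested genes were called higher. H1-3, a linker histone, stood at 125, 134, 129 and 121 CPM and then at 189, 186, 160.2 and 188 CPM (adjusted p = 0.000315). Histone messages are short and mostly lack poly(A). The 1247 shortest tested transcripts took 8.77% of coding counts in the 2 h library of 100 nM JQAD. In the other 2 h libraries they took 7.70% to 8.01%. At 6 h their share was 8.04%, 8.135%, 7.59% and 8.74% in DMSO, NT, 100 nM JQAD and 1000 nM JQAD. It was thus highest and lowest at 6 h where the summed histone level was. Whether that share has a part in the histone values was not tested.

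Other genes of the cell cycle moved little. Of 26 G1/S and replication genes, 3 fell and 1 rose (4.5% and 5.46% over all genes), with a median log2 change of -0.029. The factors E2F2 and E2F8 were 0.751 and 0.728 times their 2 h level (adjusted p = 0.00084 and 0.00136). The helicase subunit MCM5 (0.882 times) and the replication factor MCM10 (1.14 times) were called in opposite directions and lost their calls without the DMSO pair. Of 30 G2/M genes, 2 rose and none fell (6.7%), near the 5.46% that rose over all genes. They were PSRC1, a spindle protein, at 1.24 times (adjusted p = 0.0052), and CCNF, an F-box cyclin, at 1.21 times (adjusted p = 0.0043, and 0.056 without the DMSO pair). Of 25 ribosome biogenesis genes 12% were called, near the 9.96% over all genes. POLR1B and NOP2 were higher (both 1.2 times) and PPAN lower, and all 3 lost their calls without the NT pair. None of 19 ribosomal protein and elongation factor genes passed.

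Notch pathway genes rose in 4 of 13 tested cases (5.46% over all genes), and none fell. LFNG, the glycosyltransferase that tunes Notch receptors, went from 55.6, 49.9, 48.6 and 51.3 CPM to 67.1, 65.1, 60.9 and 68.4 CPM (ratio 1.26, adjusted p = 0.00269). The receptor NOTCH1 was 1.17 times as high (adjusted p = 0.0259, and 0.18 without the DMSO pair), the ligand JAG1 1.16 times (adjusted p = 0.049, lost with any pair left out) and the target HEYL 1.12 times (adjusted p = 0.041, and 0.21 without the DMSO pair). Without the 1000 nM JQAD pair the list held 2 higher and 2 lower genes. The NOTCH1 transcript (9469 bases) is among the 1247 longest. NOTCH1 stood at 183, 218, 182 and 197 CPM at 2 h and at 226, 230, 242 and 220 CPM at 6 h. It was thus highest in the 2 h library of NT and the 6 h library of 100 nM JQAD, which hold a large share of long transcripts. The part of that share was not tested.

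Muscle identity genes changed in both directions. Of 17 myogenic factors, 2 rose and 4 fell (5.46% and 4.5% over all genes). MYOD1, the master regulator of the line's muscle program, stood at 590.2, 508, 593 and 576 CPM at 2 h and at 677, 648, 641 and 747 CPM at 6 h (ratio 1.19, adjusted p = 0.0158). It passed again without the 100 nM JQAD pair, and its adjusted p was 0.062 to 0.09 without any other. Its partners MEF2C and MEF2D were 0.796 and 0.783 times as high (adjusted p = 0.00411 and 0.00269), and the AP-2 factor TFAP2B was 0.805 times as high (adjusted p = 0.0023). EYA1, a transcriptional cofactor and phosphatase, was 0.854 times as high and lost its call without the DMSO pair (adjusted p = 0.10). PAX3 and FOXO1, the fusion partners, were at 72.6 to 82 and 156 to 189.6 CPM and did not pass, nor did MYCN at 61.6 to 73.2 CPM.

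Of 21 sarcomere and muscle differentiation genes, 2 fell and none rose (9.5%, where 9.96% of all genes were called in either direction). CHRNG, the fetal subunit of the acetylcholine receptor, went from 20.2 ± 1.92 to 13.2 ± 1 CPM (adjusted p = 0.000765). KLHL41 was 0.817 times its 2 h level (adjusted p = 0.0038, and 0.066 without the DMSO pair). The matrix protein THBS1, which TGF-beta induces, was the 1 of 19 matrix genes that passed, at 232, 224, 229 and 244 CPM and then 181, 202, 183 and 183 CPM (adjusted p = 0.00269). Of 16 cytoskeletal and SRF target genes 4 fell (4.5% over all genes). TAGLN, ZYX, TPM1 and CNN2 were between 0.83 and 0.89 times their 2 h level. All 4 calls were lost without the DMSO pair (adjusted p = 0.14 to 0.29). PDGFRB, a receptor found on fibroblast-type cells, was the 1 of 6 tested fibroblast markers that was called (0.807 times, adjusted p = 0.01, and 0.10 without the DMSO pair).

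The genes of the targeted acetyltransferases were themselves lower at 6 h in the fit. CREBBP stood at 528, 578, 542 and 559 CPM at 2 h and at 469, 470.1, 522 and 404 CPM at 6 h (ratio 0.835, adjusted p = 0.0213). EP300 stood at 271, 313, 287 and 306 CPM and then at 244, 247, 290.2 and 202 CPM (ratio 0.822, adjusted p = 0.0387), with overlapping groups and no fall in the 100 nM JQAD pair. Both calls were lost without the DMSO, NT or 1000 nM JQAD pair (adjusted p = 0.078 to 0.15). The DMSO and NT pairs alone gave log2 changes of -0.24 for CREBBP and -0.25 for EP300 (adjusted p = 0.01 and 0.003). The JQAD pairs alone gave -0.27 and -0.30 (adjusted p = 0.43 and 0.38). Each of these fits had fewer pairs than the full fit. Both transcripts are among the 1247 longest (10226 and 8773 bases), whose share of counts was highest in the 6 h library of 100 nM JQAD and lowest in that of 1000 nM JQAD, where both genes were highest and lowest at 6 h. The part of that share in these values was not tested. Of 13 elongation and BET genes, CREBBP and EP300 among them, 3 fell and 1 rose (4.5% and 5.46% over all genes). The elongation factor ELL2 also fell (0.791 times, adjusted p = 0.012, and 0.10 without the DMSO pair). CCNT1, a cyclin of P-TEFb, rose (1.16 times, adjusted p = 0.021, and 0.14 without the DMSO pair).

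Large families sat near the background in the share called in either direction, which was 9.96% over all tested genes. It was 10% of 451 tested genes with ZNF symbols and 9% of 223 SLC transporters. By direction, 17 ZNF genes rose and 28 fell, and 13 SLC transporters rose and 7 fell. Over all genes 5.46% rose and 4.5% fell. Each family was described after the data were seen.

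**Figure D4:**
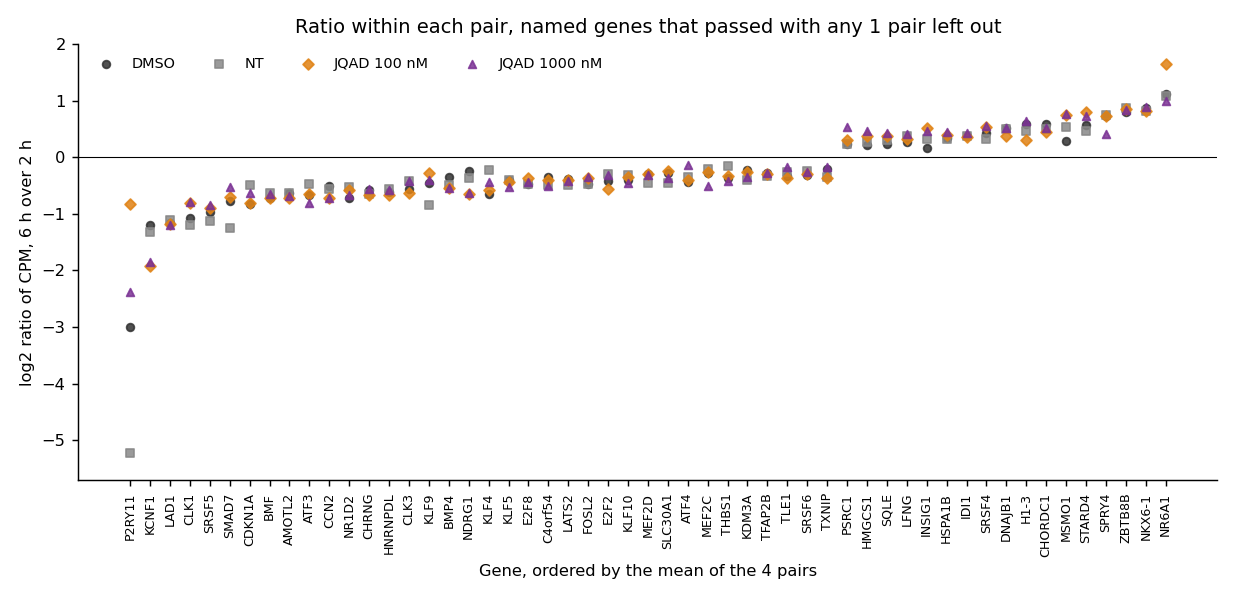
log2 ratio of CPM, 6 h over 2 h, within each of the 4 pairs (marker and colour) for the named genes called in the full fit and with any 1 pair left out, ordered by the mean of the pairs. Every ratio has the sign of its gene's mean, which the choice of these genes favours, so it is no separate evidence of agreement. P2RY11 has the widest spread between pairs.

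JQAD libraries could carry an effect of the compound, so the time effect of the JQAD pairs was set against that of the DMSO and NT pairs. With edgeR, 0 of 12462 genes (0%) differed at an adjusted p under 0.05, and 280 did at an unadjusted p under 0.05. DESeq2 also gave 0, with 31 at the unadjusted threshold. Without the filter on low counts, edgeR called 4. This test has 2 residual degrees of freedom and does not show that the pairs act alike.

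The time effect was then compared with that of the 12 libraries of A485, dCBP and IHK-44, the other compounds of the series, whose 6 pairs share no library with the 8. The mean time effect of the 3 compounds differed from that of the 8 libraries for 2412 of 12543 genes (19.2%), with 653 higher and 1759 lower under the compounds. With edgeR, A485 alone differed for 2 genes, with 1701 at an unadjusted p under 0.05. For dCBP and IHK-44 together 2978 differed, with 4431 at the unadjusted threshold. A485 alone has fewer pairs, so these counts do not show that it changed the time effect less. Leaving out 1 of the 4 pairs gave 1581 (without DMSO) to 1920 differences. Of the 680 genes that rose in the 8 libraries, 158 (23.2%) differed and 549 also had a positive mean change under the compounds, with a median log2 change of 0.268 there and 0.303 in the 8 libraries. Of the 557 genes that fell and were tested here, 233 (41.8%) differed and 494 also had a negative mean change, with medians of -0.471 and -0.301.

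The 4 genes with the smallest adjusted p for this difference, picked by rule, were TLE1, a co-repressor that binds Notch effectors, C4orf54, FHL2, a LIM-domain cofactor, and ST6GAL2, a sialyltransferase. TLE1 stood at 256 to 275 CPM at 2 h and 208 to 235 CPM at 6 h in the 8 libraries. Its log2 change in the joint fit was -0.29 there and -2.29 under the compounds (difference -2 ± 0.14, adjusted p = 1.01e-05). For C4orf54 the difference was -2.15 ± 0.15. FHL2 and ST6GAL2 had overlapping times in the 8 libraries and differences of -1.98 ± 0.14 and -1.75 ± 0.14.

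Several genes that rose with time in the 8 libraries had mean changes of the opposite sign under the compounds. The Notch genes LFNG (difference -2.16 ± 0.27), HEYL (-1.80 ± 0.22), NOTCH1 (-1.16 ± 0.13) and JAG1 (-0.996 ± 0.17) had mean changes there of -1.81, -1.62, -0.93 and -0.77. SPRY4 went from a change of 0.65 to -0.26 (difference -0.91 ± 0.17), and MYOD1 from 0.26 to -1.05 (difference -1.31 ± 0.36, adjusted p = 0.0205, and 0.0541 to 0.0623 without the DMSO, NT or 1000 nM JQAD pair). SQLE also turned, at 0.33 and -0.24 (difference -0.57 ± 0.08). For STARD4 no difference was called, with changes of 0.63 on both sides (difference -0.01 ± 0.16). HSPA1B had the larger change under the compounds, at 1.12 against 0.37 (difference 0.76 ± 0.13).

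Genes that fell with time differed from the compounds in either direction. CLK1 and CLK3 had changes of -0.97 and -0.51 in the 8 libraries and -0.13 and 0.31 under the compounds (differences 0.84 ± 0.15 and 0.82 ± 0.11). LATS2 and KLF5 had mean changes of 0.01 and 0.21 there (differences 0.44 ± 0.09 and 0.66 ± 0.17), and for KLF5 the adjusted p was 0.0144, or 0.0801 with dCBP and IHK-44 only. The change of SRSF5 (difference 0.19 ± 0.11), CDKN1A (-0.25 ± 0.14) and ATF4 (-0.01 ± 0.08) was not called different. CCN2 had the lower change under the compounds, at -1.58 against -0.63 (difference -0.95 ± 0.17), and so had IRS1 (-2.29 ± 0.22), TFAP2B (-2.35 ± 0.21), MEF2C (-1.26 ± 0.15) and THBS1 (-1.12 ± 0.14). With A485 alone none of these called differences passed, at adjusted p between 0.0667 and 0.792, though the size of some was similar or larger. In that comparison the difference was 0.95 for CLK1, 1.01 for KLF5, 0.72 for CLK3, 0.38 for LATS2 and -1.69 for LFNG. It was smaller for others, such as -0.16 for CCN2, -0.56 for IRS1, -0.46 for JAG1, -0.36 for MYOD1 and -0.29 for SPRY4. The SPRY4 value is smaller than its rise of 0.65 in the 8 libraries, so its fitted change with A485 was not of the opposite sign.

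**Figure D5:**
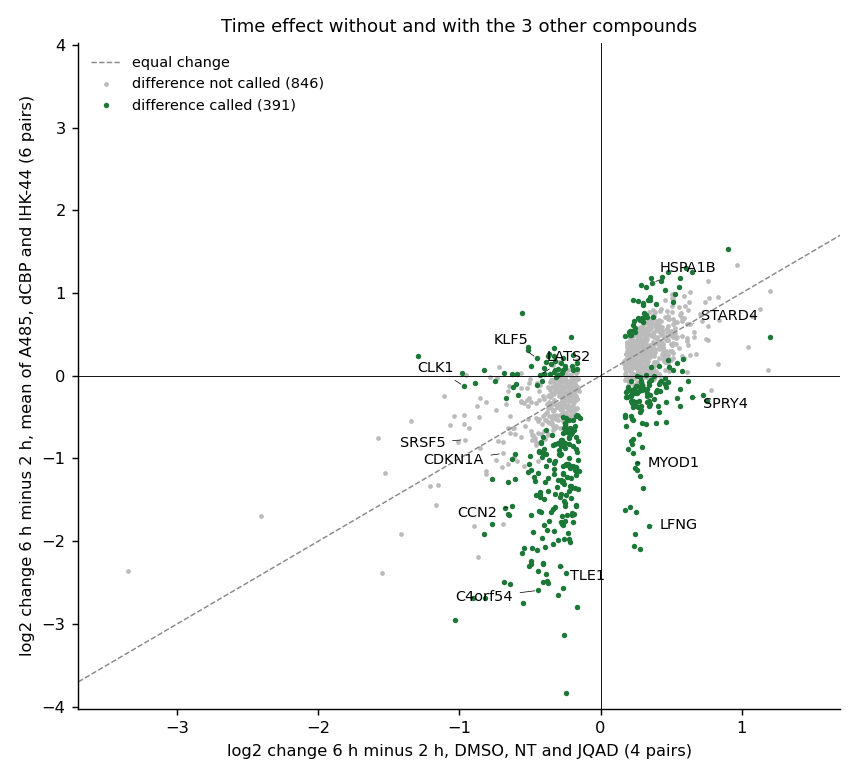
Log2 change from 2 h to 6 h in the 4 pairs of DMSO, NT and JQAD (horizontal axis) against the mean change of A485, dCBP and IHK-44 (vertical axis) for the 1237 called genes tested in both, from 1 fit of 20 libraries. Green points are the 391 genes whose difference was called, and the dashed line marks equal change. In 194 genes the sign is opposite, and in 142 of those the difference was called.

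Properties of whole libraries were not shown to differ between the times. The share of counts in the 10 highest genes was 5.11% ± 0.0887 (SD, n = 4) at 2 h and 4.97% ± 0.0884 at 6 h, lower at 6 h in all 4 pairs (p = 0.125, the smallest that 4 pairs allow, by a two-sided exact permutation of the signs of the pairs, adjusted p = 0.333 over 4 measures). The number of genes at 1 CPM or more was lower at 6 h in 3 of 4 pairs, with means of 12058.5 and 11973.8 (exact permutation p = 0.25, adjusted 0.333). The share of reads outside coding genes was 5.63% to 7.46% at 2 h and 5.93% to 6.57% at 6 h (exact permutation p = 0.875).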

How the data were processed

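RNA was profiled in RH4 cells, 1 library per condition and time. The submitters' processing notes name STAR 2.5.3a, RSEM 1.3.3 and hg38, with no role given. Per the file headers, the deposited tables hold an expected count, TPM, FPKM and CPM for each of 18980 coding genes. The authors' CPM is the expected count scaled to a common total over coding genes. FPKM was not used. Of the deposited expected counts, 88% to 88.8% were whole numbers, and all were rounded for count tests.

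Genes were tested with edgeR 4.0.16 (R 4.3.3): quasi-likelihood test, TMM scaling, filterByExpr, pair as a block, 8 libraries, 3 residual degrees of freedom. Calls had a Benjamini-Hochberg adjusted p under 0.05. The test of JQAD against DMSO and NT pairs had 2, and the comparison with the compounds used all 20 libraries. Alternatives used DESeq2 1.42.0, limma 3.58.1 on log2(value + 1) of the deposited CPM or TPM, other scalings and filters, and each pair left out in turn. Whole-library measures were compared by exact permutation of the signs of the pair differences, computed in Python 3.11.15 with numpy 2.4.6. Scripts were tested on simulated data. ± is the SD of 4 libraries for CPM and the standard error for log2 values. Ratios are fitted values.

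Named genes were the 12 largest rises and falls with the same sign in 4 pairs and at least 1 CPM, up to 4 genes per list by smallest p, 4 genes by the smallest adjusted p of each difference test with calls, EP300 and CREBBP. Further list members called in the full fit, MYC, JUN and the marker genes, BMF and SULT1A3 were added. Members and lists were chosen with earlier results of these data known, and the splicing, hnRNP, ZNF and SLC lists, 2 motifs and the transcript length measure were added after values were seen. ChIP-seq and ChRO-seq samples were not analysed here. Gene symbols and promoters were matched to RefSeq (GRCh38.p14), with promoters for 10193 of the tested genes. A few genes that the rule names are not reported here.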

Additional observations from a re-analysis of the deposited data

Results flagged for a closer look

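Within the 4 libraries of a time, 24 of 304 groups of values had 1 library far from the others, with a gap beyond the critical value of Dixon's test. Chance gives this for a small share of groups (about 1 in 20). At 2 h the DMSO library was lowest for CFLAR (0.851), the gap as a share of the range in brackets. At 2 h the 1000 nM JQAD library was lowest for CLK1 (0.868), AMOTL2 (0.876) and CHORDC1 (0.845). At 2 h the NT library was lowest for DUSP6 (0.876) and MYOG (0.837). At 2 h the 100 nM JQAD library was lowest for PDGFRB (0.866). At 2 h the NT library was highest for CCNG2 (0.844). At 6 h the 100 nM JQAD library was lowest for TMEM121 (0.955), TEF (0.858), AXL (0.932), TXNIP (0.883), DNAJB1 (0.855), H1-3 (0.907) and CCNG2 (0.847). At 6 h the NT library was highest for ZBTB8B (0.972), PMAIP1 (0.830) and THBS1 (0.910). At 6 h the 1000 nM JQAD library was lowest for KLF5 (0.886) and KLHL24 (0.876). At 6 h the 100 nM JQAD library was highest for IRS1 (0.932) and TTN (0.909). The DMSO library at 6 h was lowest for FOS (0.835). The 1000 nM JQAD library at 6 h was highest for FGFR4 (0.892).

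The time effect of A485, dCBP and IHK-44 differed from that of the 8 libraries by the test of the difference for 2412 genes. As log2 differences (compounds minus the 8 libraries), it was higher for CLK1 (0.841), CLK3 (0.824), KLF5 (0.662), LATS2 (0.439) and HSPA1B (0.755). It was lower for SPRY4 (-0.906), CCN2 (-0.95), LFNG (-2.16), NOTCH1 (-1.16), HEYL (-1.8), JAG1 (-0.996), SQLE (-0.571), IRS1 (-2.29), TFAP2B (-2.35), MEF2C (-1.26), MYOD1 (-1.31), THBS1 (-1.12), TLE1 (-2), C4orf54 (-2.15), FHL2 (-1.98) and ST6GAL2 (-1.75).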

How the results depend on the processing

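The number of genes called between 6 h and 2 h (1241) fell to 704 with DESeq2, 67 with limma on TPM, 86 in the JQAD pairs alone, 233 with all 20 libraries in 1 fit, 123 at 1.5-fold or more and 419 at an adjusted p under 0.01, and ran from 331 (without DMSO) to 1643 (without 100 nM JQAD) with 1 pair left out. Other scalings, filters and blocks gave 1186 to 1532, the last with no pair block. No paired analysis by replicate number was possible because each condition has 1 library per time; pairs are conditions. The JQAD test gave 4 calls without the filter on low counts. The difference from the compounds (2412) gave 2 calls with A485 only and 1581 to 1920 with 1 pair left out. The difference in the share of reads outside coding genes (0.116 percentage points) was -0.0872 without DMSO, -0.128 without 1000 nM JQAD and 0.666 without 100 nM JQAD. Over 18 settings, 1690 of 2321 values of single genes kept direction and call, 631 lost the call and 0 reversed. With 1 library per condition, what is particular to a pair and sampling variation cannot be told apart.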
